A study of Mus musculus with 12 samples.

Results

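Chemokines and their receptors were examined in wounds of the back skin of C57BL/6 mice made diabetic with streptozotocin, which destroys the insulin-producing cells of the pancreas. Members were the genes whose symbols begin with Ccl, Cxcl, Cx3cl, Xcl, Ccr, Cxcr, Cx3cr, Xcr or Ackr and a number. The neutrophil-directed group Cxcl1, Cxcl2, Cxcl3, Cxcl5 and Cxcr2 was set aside by rule. Of 61 symbols with such names in the deposited tables, 5 were set aside and 5 (Ccl21a, Ccl21b, Ccl21c, Ccl26 and Ccl27b) were under the minimum of 10 counts over the 12 libraries. This left 51 of the 24062 genes counted, and 48 of those 51 passed the filter on low counts. Cxcl11, Cxcl15 and Cxcl17 did not pass it.

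The study sequenced total RNA of 12 wounds, each from a differently numbered mouse, after treatment with the mast cell stabilizer MCS-01 or with comparators. The 4 groups of 3 wounds are labelled blank, DSCG, post-MCS-01 or pre-MCS-01 by treatment, and all 4 share the strain, the streptozotocin diabetes and the back skin wound. What pre and post refer to and what DSCG stands for is not said in the labels, and dose, time, age and sex are not given in the sources used here. With 1 library per mouse, the p-values measure the spread between mice and libraries together.

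Chemokines are small secreted proteins that steer leukocytes along gradients by binding G-protein-coupled receptors on the migrating cell. Inflammatory chemokines are induced by injury and bring in neutrophils, monocytes and effector lymphocytes, whereas homeostatic chemokines position resident cells and dendritic cells in skin and lymphoid tissue. Atypical receptors bind the same ligands without classical G-protein signalling and remove or transport them. In skin wounds, the order in which these signals come and go is part of the passage from inflammation to tissue formation.

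Gene counts totalled 3835042 in blank replicate 3 and 37702643 to 50461867 in the other 11 libraries. A count of 3 corresponded to 0.782 CPM (gene counts scaled to a common library total) in blank replicate 3 and to 0.0595 to 0.0796 CPM elsewhere, so low members were counted coarsely in that library. Long genes were under-represented in blank replicate 3, DSCG replicate 2 and pre-MCS-01 replicate 2, with a Spearman correlation of level with exon length of −0.389 to −0.327 over 15055 genes, against −0.0613 to 0.344 in the other 9. Keratinocyte markers summed to 20501 to 79422 CPM and fibroblast markers to 11651 to 67956 CPM over the 12 libraries. Hair follicle markers (all 10 present) summed to 39.4 to 141 CPM in the post-MCS-01 wounds, 1969 to 40045 CPM in the DSCG wounds, 12462 to 30178 CPM in the pre-MCS-01 wounds and 6671 to 19592 CPM in the blank wounds. Neutrophil markers (9 of 10 present) summed to 483 to 877 CPM in blank, 28.2 to 3649 CPM in DSCG, 4427 to 9975 CPM in post-MCS-01 and 3966 to 6393 CPM in pre-MCS-01 wounds. These are bulk tissues, in which fewer cells of a type and less RNA per cell cannot be told apart.

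Levels are compared between genes as CPM per kilobase of exon. The inflammatory ligand Ccl8, which in mice signals through Ccr8, had the highest mean over the 12 libraries, at 518 CPM per kb. It was followed by 2 other secreted ligands, Cxcl14 of skin epithelium at 155 CPM per kb and the rodent ligand Ccl6 at 88.1 CPM per kb. The stromal ligand Cxcl12, the membrane-bound ligand Cxcl16 and the lymphoid ligand Ccl19 followed at 29.2, 24.6 and 23.7 CPM per kb. Receptors were lower than these. The highest were Ackr3, a scavenger of Cxcl12, at 13.2 CPM per kb and Cxcr4, the signalling receptor for Cxcl12, at 11.7 CPM per kb. The other leading conventional receptors were Ccr1 at 6.63 and the monocyte receptor Ccr2 at 4.39 CPM per kb. Cxcl15, a ligand known from lung, was lowest at 0.0122 CPM per kb.

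**Figure D1:**
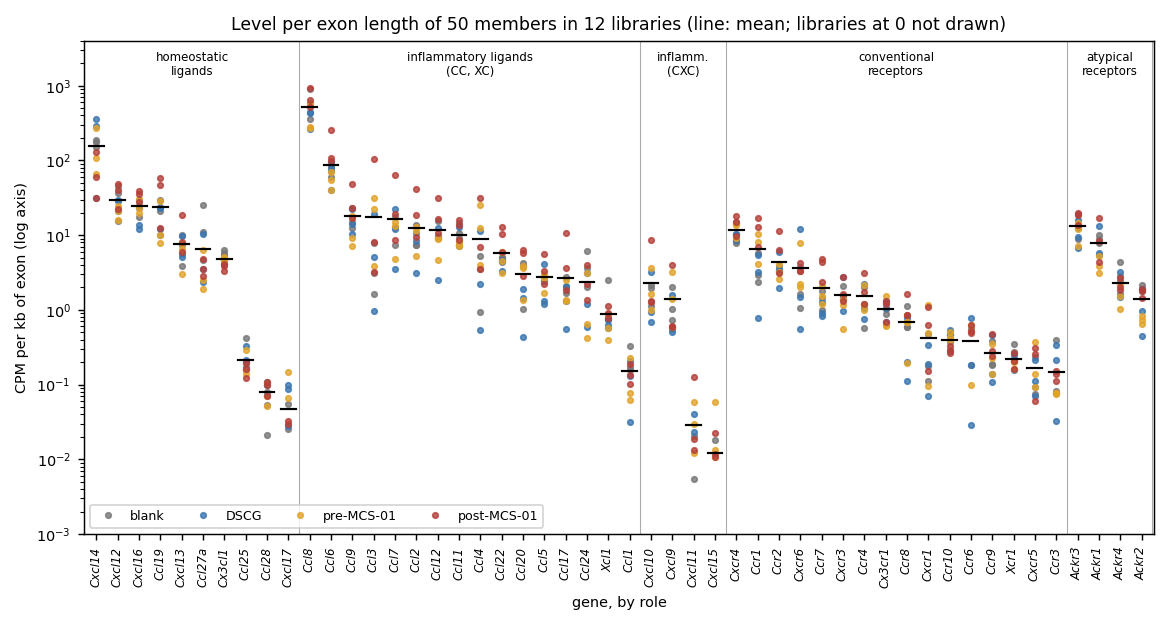
Level of 50 of the 51 chemokine and receptor genes in CPM per kilobase of exon on a log axis, 1 point per library with the 4 treatment groups in colour and a line at the mean, ordered by level within each class (libraries at 0 are not drawn). Ccl8 stands highest with a mean of 518 CPM per kb, and the receptors lie lower, led by Ackr3 at 13.2 and Cxcr4 at 11.7 CPM per kb.

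Of the 48 genes tested, only 1 differed between any pair of groups at an adjusted p under 0.05 in edgeR's quasi-likelihood test with Benjamini-Hochberg adjustment over all 16267 genes. That gene was Ccr7, higher in post-MCS-01 than in DSCG wounds, where 1.06% of all genes passed (0.141% higher and 0.916% lower in post-MCS-01). None of the 48 passed in the remaining 5 comparisons, nor in the joint test of the 4 groups, where edgeR called 0.0% of all genes. For post-MCS-01 against DSCG, 12 members (25.0%) had an unadjusted p under 0.05, against 1846 of all genes, or 11.3%. Without DSCG replicate 3 that count was 6, against 1536 of all genes. Without DSCG replicate 1 it was 22, against 2918. With all 12 libraries, DESeq2 called 6 members in this comparison (Ccl17, Ccl20, Ccl22, Ccr1, Ccr7 and Cxcl16, or 12.5%) and 3.81% of all genes. Limma-voom called 0 members and 0.0123% of all genes, and 0 of either with library quality weights.

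For post-MCS-01 against blank, where edgeR called 0.0% of all genes, 8 of the 48 (16.7%) had an unadjusted p under 0.05, against 9.35% of all genes. DESeq2 called 2 (Ccr7 and Cx3cl1, or 4.17%, against 2.5% of all genes), limma-voom 0, and limma-voom with quality weights 4 (8.33% against 5.08%). For pre-MCS-01 against post-MCS-01, where 0.824% of all genes passed (0.805% higher and 0.0184% lower in pre-MCS-01), 14 members (29.2%) had an unadjusted p under 0.05, against 10.2% of all genes. That count was 5 without post-MCS-01 replicate 3, against 1028 of all 16267 genes. Without post-MCS-01 replicate 2 it was 17, against 1795. With all 12 libraries, DESeq2 called 3 in this comparison (Ccl22, Ccl6 and Ccr7, or 6.25%, against 2.63% of all genes), limma-voom 0, and limma-voom with quality weights 28 (58.3% against 23.5%). For pre-MCS-01 against blank, with 0.0% of all genes called, the unadjusted count was 4 (8.33% against 7.24%). DESeq2 and limma-voom called 0 members there, and limma-voom with quality weights 7, which at 14.6% was near its 15.3% of all genes. For both DSCG against blank and pre-MCS-01 against DSCG, each with 0.0% of all genes called, edgeR found 0 members at an unadjusted p under 0.05, where 1.03% and 2.36% of all genes were, and none of the other tools called a member. The joint test had 11 of the 48 members at an unadjusted p under 0.05, against 1369 of all 16267 genes. DESeq2 called 2 in it (Ccl22 and Ccr7, or 4.17%, against 3.48% of all genes), limma-voom 0 and the weighted fit 13 (27.1% against 13.5%).

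The direction of the differences, whether or not they passed, was uneven between post-MCS-01 and DSCG. There 40 of 48 members (83.3%) had the higher estimate in post-MCS-01, against 49.4% of all genes, and the median log2 difference was 0.68 over members and −0.01 over all genes. The member median was 0.49 without post-MCS-01 replicate 3, 0.54 without DSCG replicate 3 and 1.11 without DSCG replicate 1. All 16 inflammatory CC and XC ligands had a positive estimate, with a median of 1.16, as did 14 of 17 conventional receptors (median 0.59), whereas the 9 homeostatic ligands divided into 4 positive and 5 negative (median −0.02). The other comparison that used the same post-MCS-01 wounds, against blank, gave 36 positive and 12 negative estimates with a median of 0.57, which was 0.25 without post-MCS-01 replicate 3. Of all genes, 49.2% had a positive estimate there, with a median of −0.01. Between pre-MCS-01 and post-MCS-01, 42 of 48 estimates were lower in pre-MCS-01 and the median was −0.73. That median was −0.54 without post-MCS-01 replicate 3 and −0.82 without pre-MCS-01 replicate 1. Of all genes, 52.5% had the higher estimate in pre-MCS-01, with a median of 0.03. The member medians were smaller in pre-MCS-01 against blank (−0.21), DSCG against blank (−0.21) and pre-MCS-01 against DSCG (−0.02). For DSCG against blank the median was −0.56 without DSCG replicate 1, −0.02 without DSCG replicate 3 and −0.13 without blank replicate 1. For pre-MCS-01 against DSCG it was 0.12 without DSCG replicate 1 and −0.12 without DSCG replicate 3. These 6 comparisons share groups pairwise and are not independent of one another.

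**Figure D2:**
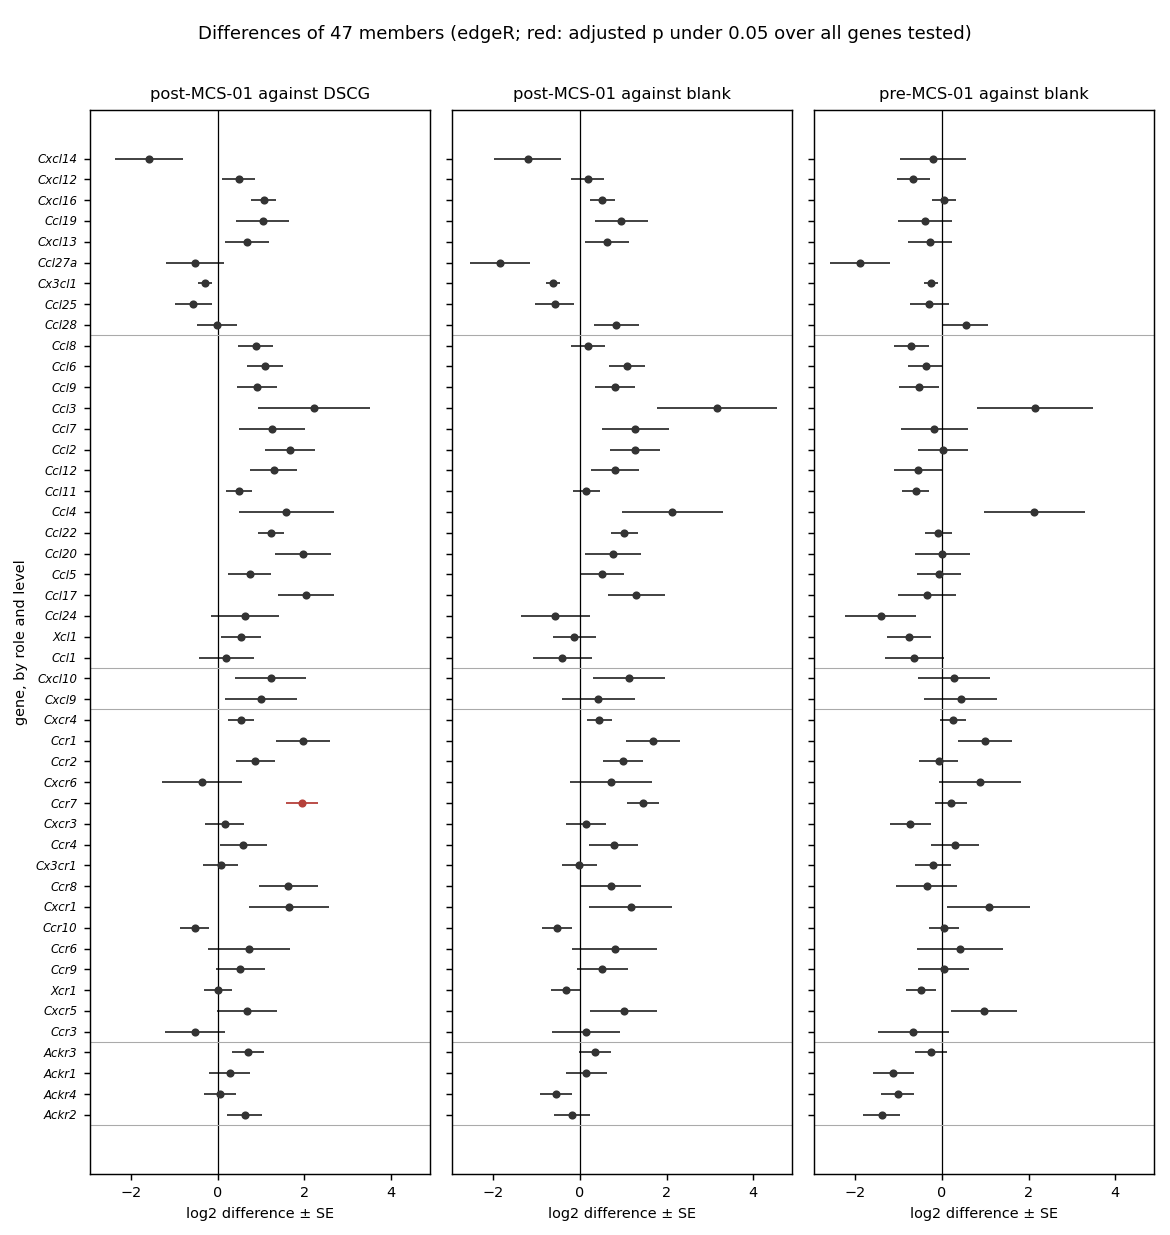
Estimated log2 difference (first group minus second, x axis) with its standard error for 47 of the 48 tested members in rows by class, in 3 panels for post-MCS-01 against DSCG, post-MCS-01 against blank and pre-MCS-01 against blank. Most points of the first panel lie above 0 (member median 0.68) and Ccr7 alone is drawn in red for an adjusted p under 0.05, while the third panel centres near −0.21.

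Members whose groups did not overlap were counted in the same way and set beside the share of all genes. Between post-MCS-01 and DSCG there were 11 (22.9%, against 15.4% of all genes). Of these, 10 were higher in post-MCS-01, where 7.14% of all genes were, among them Ccr7, Ccl22, Cxcl16, Ccr1, Ccl20, Ccl6, Ccr8, Ccl8 and Xcl1. Cx3cl1 alone was lower, against 8.28% of all genes. The margin was small for Xcl1, at 0.403 CPM in post-MCS-01 replicate 1 against 0.381 CPM in DSCG replicate 3. For Ccl6 it was also small, at 175 CPM in post-MCS-01 replicate 1 against 173 CPM in DSCG replicate 2. Between pre-MCS-01 and post-MCS-01 there were 10 (20.8% against 17.7%), with 2 higher in pre-MCS-01 (Cx3cl1 and Ccr10, against 10.7% of all genes) and 8 lower (against 7.01%). For post-MCS-01 against blank there were 8 (16.7% against 18.4%), with 5 higher in post-MCS-01 (against 8.92%) and 3 lower (against 9.45%). For pre-MCS-01 against blank there were 8 (16.7% against 14.4%), with 0 higher in pre-MCS-01 (against 8.41%) and 8 lower (against 5.96%). For DSCG against blank there were 2 (4.17% against 3.68%), with 0 higher in DSCG (against 1.91%) and 2 lower, Cx3cl1 and Xcl1 (against 1.77%). The margin of Xcl1 was small, with 18 counts (0.381 CPM) in DSCG replicate 3 against 19 counts (0.395 CPM) in blank replicate 2. For pre-MCS-01 against DSCG there was 1 (2.08% against 5.12%), with 0 higher in pre-MCS-01 (against 2.53%) and 1 lower, Ackr1 (against 2.59%).

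Ccr7 is the receptor by which dendritic cells and naive T cells follow Ccl19 and Ccl21 to lymph nodes. The gene lies on chromosome 11 at 99144196 to 99155077 (GRCm38). Its level was 9.47, 4.65 and 8.72 CPM in the 3 post-MCS-01 wounds, 3.08, 2.36 and 4.14 CPM in the pre-MCS-01 wounds, 2.51, 1.63 and 1.78 CPM in the DSCG wounds and 3.49, 1.95 and 2.88 CPM in the blank wounds. Every post-MCS-01 library stood above the 9 others. Ccr7 rose in post-MCS-01 relative to DSCG by a log2 difference of 1.95 ± 0.36 (SE), 3.86-fold, with an edgeR adjusted p of 0.0353 (7.62 ± 2.59 against 1.97 ± 0.471 CPM, mean ± SD, n = 3 libraries each). Against blank the log2 difference was 1.46 ± 0.37 with an edgeR adjusted p of 0.159, and pre-MCS-01 minus post-MCS-01 was −1.25 ± 0.36 with an adjusted p of 0.199. Pre-MCS-01 minus DSCG was 0.70 ± 0.36 (edgeR adjusted p 1.00), or 0.43 without pre-MCS-01 replicate 3. The joint p of Ccr7 was the smallest of the 48, at 0.000734 before and 0.176 after adjustment over all genes.

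The call for Ccr7 was kept in 1 of the 6 fits that left out a library of either group. Without DSCG replicate 1 the edgeR adjusted p was 0.0172, but without any 1 of the other 5 libraries of the 2 groups it was 0.141 to 0.164, with log2 differences of 1.78 to 2.23 over the 6 fits. It was also lost when only the 2 groups were fitted (adjusted p 0.165), with limma-voom (0.144), with library quality weights (0.0805) and without the 3 libraries low in long genes (0.237). Markers of dendritic cells other than the members, 7 genes, summed to 156 to 253 CPM in post-MCS-01, 206 to 330 CPM in DSCG, 184 to 276 CPM in blank and 167 to 228 CPM in pre-MCS-01 wounds. T and NK cell markers (8 of 10 present) summed to 29.4 to 44.7, 15.6 to 69.3, 20.0 to 39.0 and 23.2 to 38.3 CPM in the same order. Both sets of ranges overlapped between all 4 groups. The dendritic cell sum was carried by Fscn1, at 117 to 295 CPM, and the median log2 difference of the 7 markers between post-MCS-01 and DSCG was 0.45, with 5 of 7 positive and 0 called. Among the T and NK cell markers, edgeR called 1 in that comparison, the cytotoxic granule protease Gzmb. Gzmb was at 8.34, 5.09 and 8.01 CPM in post-MCS-01 and at 0.835 to 4.07 CPM in the other 9 libraries, a log2 difference to DSCG of 2.54 ± 0.32 (edgeR adjusted p 0.0288). Hair follicle and neutrophil markers differed in their sums between the groups (values above), and the part of these markers and of Gzmb in the Ccr7 result was not tested.

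**Figure D3:**
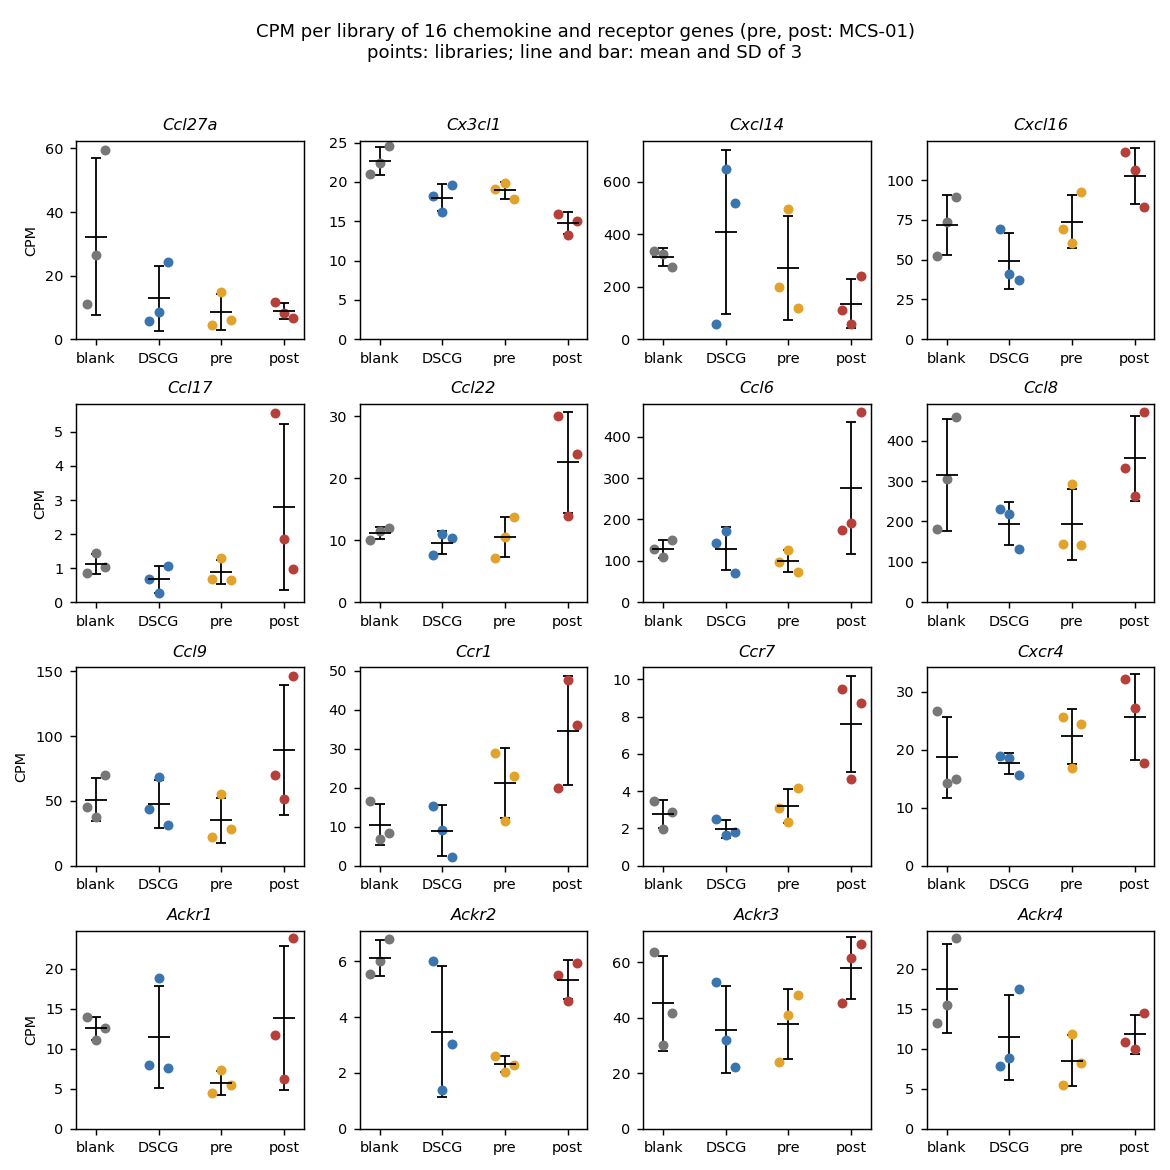
Level in CPM of the members named with full statistics, 1 point per library with the group mean and an error bar of 1 SD, in the blank, DSCG, pre-MCS-01 and post-MCS-01 wounds. For Ccr7 the post-MCS-01 points sit at 4.65 to 9.47 CPM, above all others, and for Ackr2 the pre-MCS-01 points sit at 2.05 to 2.61 CPM.

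Over the 12 libraries, the genes outside the family whose log2 CPM followed that of Ccr7 most closely, of 13479 compared, were Gzmb (r = 0.941), Cebpd (0.914), Ctla4 (0.909), Gpr171 (0.904) and Clec5a (0.873). Ctla4 encodes an inhibitory receptor of T cells. Within the family, r was 0.803 for Ccl22 and 0.768 for Ccl2. These correlations describe libraries that share treatment groups and depth, and carry no p.

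Ccl22 and Ccl17, both ligands of Ccr4 made by dendritic cells and macrophages, flank Cx3cl1 in a run on chromosome 8 from 94745590 to 94812036 (GRCm38, GENCODE M21). Cx3cl1, fractalkine, is a membrane-anchored ligand of endothelium and epithelium. As these neighbours did not share a pattern, the 250 bases before the start of each gene are shown, from RefSeq on GRCm38.p6, all on the plus strand. They are chr8:94745434-94745683 for Ccl22, chr8:94771930-94772179 for Cx3cl1 and chr8:94810203-94810452 for Ccl17. GENCODE starts Ccl22 and Cx3cl1 inside their windows, at 94745590 and 94772009. Capitals mark the matches to 4 motifs searched on both strands, namely TTCNNNGAA and TTCNNNNGAA (STAT type), GAAANNGAAA (interferon type) and the NF-kappaB consensus.
Ccl22: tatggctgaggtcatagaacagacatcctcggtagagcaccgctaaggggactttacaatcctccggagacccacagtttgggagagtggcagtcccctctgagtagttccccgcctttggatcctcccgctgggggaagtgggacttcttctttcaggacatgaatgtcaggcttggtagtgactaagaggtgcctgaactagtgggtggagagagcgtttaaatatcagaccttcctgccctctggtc
Cx3cl1: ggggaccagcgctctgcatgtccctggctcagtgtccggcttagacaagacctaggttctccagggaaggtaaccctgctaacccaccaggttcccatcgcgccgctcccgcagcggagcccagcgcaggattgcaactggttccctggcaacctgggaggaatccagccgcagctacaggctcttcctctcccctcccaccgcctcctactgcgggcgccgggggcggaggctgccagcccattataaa
Ccl17: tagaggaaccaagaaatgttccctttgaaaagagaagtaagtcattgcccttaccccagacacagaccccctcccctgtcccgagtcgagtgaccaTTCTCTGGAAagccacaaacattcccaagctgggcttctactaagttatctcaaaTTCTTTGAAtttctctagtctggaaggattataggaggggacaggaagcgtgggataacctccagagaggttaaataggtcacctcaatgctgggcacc
The Ccl17 window held TTCNNNNGAA at 154 bases and TTCNNNGAA at 99 bases before the start, and the windows of Ccl22 and Cx3cl1 held none of the 4. Over all 32851 windows of the same length, 5.85% held TTCNNNNGAA and 7.02% held TTCNNNGAA. The RefSeq table had an entry for 38 of the 51 members, and 1 of those held the first and 3 the second. A match describes letters only.

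Ccl22 stood at 30.1, 13.9 and 23.9 CPM in the post-MCS-01 wounds, 7.23, 10.6 and 13.7 CPM in the pre-MCS-01 wounds, 7.62, 11 and 10.4 CPM in DSCG and 10.1, 11.5 and 12.1 CPM in blank. Each post-MCS-01 value was above every other, the lowest by a small margin over pre-MCS-01 replicate 3. The log2 difference to DSCG was 1.23 ± 0.31 (edgeR adjusted p 0.111), to blank 1.02 ± 0.31 (0.274), and pre-MCS-01 minus post-MCS-01 was −1.10 ± 0.31 (0.191). Ccl17 was at 5.54, 1.85 and 0.964 CPM in post-MCS-01, 0.696, 1.31 and 0.667 CPM in the pre-MCS-01 wounds, 0.684, 0.286 and 1.06 CPM in DSCG and 0.863, 1.43 and 1.05 CPM in blank. Post-MCS-01 replicate 1 was the highest, and the groups overlapped. Its log2 difference to DSCG was 2.03 ± 0.65 (edgeR adjusted p 0.220), and 1.05 without post-MCS-01 replicate 1. Ccr4, the receptor of both, was at 3.76 to 9.65 CPM in post-MCS-01 and 2.37 to 6.79 CPM in DSCG, overlapping ranges.

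Cx3cl1 had the smallest spread of all members, with 1.87-fold between its highest and lowest library. It stood at 21.1, 22.4 and 24.6 CPM in blank, 18.2, 16.2 and 19.6 CPM in DSCG, 19.1, 19.9 and 17.8 CPM in the pre-MCS-01 wounds and 16.0, 13.2 and 15.1 CPM in post-MCS-01. The blank wounds were above all others and the post-MCS-01 wounds below all others. The log2 difference of post-MCS-01 to blank was −0.62 ± 0.17 (edgeR adjusted p 0.191) and of DSCG to blank −0.33 ± 0.16 (0.999). Its receptor Cx3cr1, carried by monocytes and macrophages, was at 3.14 to 5.85 CPM in post-MCS-01 and 3.93 to 5.66 CPM in blank, overlapping ranges.

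Among the inflammatory ligands, Ccl8 stood at 182, 304 and 459 CPM in blank, 230, 219 and 133 CPM in DSCG, 144, 293 and 141 CPM in the pre-MCS-01 wounds and 333, 264 and 471 CPM in post-MCS-01. The post-MCS-01 and DSCG ranges did not overlap, while those of every other pair did. The log2 difference of post-MCS-01 to DSCG was 0.88 ± 0.40 (edgeR adjusted p 0.439). Ccl6 and Ccl9, rodent ligands of Ccr1, were highest in post-MCS-01 replicate 3. Ccl6 was at 175, 191 and 459 CPM in post-MCS-01, 97.8, 126 and 73.0 CPM in the pre-MCS-01 wounds, 144, 173 and 72.0 CPM in DSCG and 128, 109 and 151 CPM in blank. Ccl9 was at 70.1, 51.1 and 146 CPM, 21.8, 54.9 and 28.3 CPM, 43.3, 68.2 and 31.2 CPM and 45.2, 37.9 and 69.7 CPM in the same order. Ccl6 in post-MCS-01 was above all other libraries, and Ccl9 overlapped between the groups. Pre-MCS-01 minus post-MCS-01 was −1.47 ± 0.41 for Ccl6 (edgeR adjusted p 0.191) and −1.35 ± 0.46 for Ccl9 (0.330). Without post-MCS-01 replicate 3 the 2 differences were −0.92 and −0.83.

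The monocyte ligands Ccl2, Ccl7 and Ccl12, which signal through Ccr2 and lie with Ccl11, Ccl8 and Ccl1 in a run on chromosome 11 from 82035571 to 82305690, each had their highest value in post-MCS-01 replicate 3, at 47.9, 50.4 and 17.1 CPM. The next values within that group were 21.0, 15.6 and 8.72 CPM. The 4 groups overlapped for Ccl2 and Ccl7, while Ccl12 was lower in each pre-MCS-01 wound than in any blank or post-MCS-01 wound. The margin to blank was very small, with 4.947 CPM in pre-MCS-01 replicate 3 against 4.948 CPM in blank replicate 2. Log2 differences of post-MCS-01 to DSCG were 1.67 ± 0.59 for Ccl2, 1.24 ± 0.76 for Ccl7 and 1.29 ± 0.55 for Ccl12, none past the threshold. The macrophage inflammatory ligands Ccl3 and Ccl4 (chromosome 11, in a run with Ccl5, Ccl9 and Ccl6 from 83525778 to 83664683) varied most of all members. Ccl3 ranged from 0.741 CPM in DSCG replicate 3 to 80.7 CPM in post-MCS-01 replicate 2, 109-fold, and Ccl4 from 0.360 to 20.9 CPM in the same libraries, 58.1-fold. Both spanned most of their range inside the post-MCS-01 group, where Ccl3 was at 2.49, 80.7 and 6.20 CPM, and none of the group differences of either gene passed the threshold. Macrophage and monocyte markers (9 of 10 present) summed to 1118 to 1980 CPM in post-MCS-01, 678 to 1032 CPM in the pre-MCS-01 wounds, 738 to 1512 CPM in DSCG and 964 to 1343 CPM in blank. The part of these markers in the ligand values was not tested.

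Ccl20, the ligand of Ccr6 made by keratinocytes in inflamed skin, was at 9.07, 8.11 and 4.06 CPM in post-MCS-01 and at 0.608, 2.07 and 2.73 CPM in DSCG, with no overlap between the pair. It was at 1.45, 5.55 and 6.03 CPM in blank and 1.91, 5.54 and 5.11 CPM in the pre-MCS-01 wounds, both overlapping post-MCS-01. The log2 difference of post-MCS-01 to DSCG was 1.97 ± 0.65 (edgeR adjusted p 0.242) and to blank 0.76 ± 0.65 (0.821). None of the remaining CC and XC ligands passed the threshold of edgeR's test. The eotaxins Ccl11 and Ccl24, ligands of the eosinophil receptor Ccr3, were at 7.65 to 17.2 and 0.547 to 7.86 CPM over the 12 libraries. The T cell attractant Ccl5 was at 1.14 to 5.32 CPM. Ccl1, a ligand of Ccr8, and Xcl1, the ligand of Xcr1, reached 0.786 and 1.31 CPM at most, both in blank replicate 3, where these are 3 and 5 counts.

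The interferon-induced ligands of Cxcr3, Cxcl9 and Cxcl10, lie with Cxcl11 on chromosome 5 from 92321347 to 92365485. Cxcl9 was at 1.79, 1.85 and 12.1 CPM in post-MCS-01, 9.77, 1.76 and 4.21 CPM in the pre-MCS-01 wounds, 4.74, 1.67 and 1.55 CPM in DSCG and 6.12, 2.22 and 3.14 CPM in blank. Cxcl10 was at 2.87, 3.00 and 19.5 CPM, 8.15, 2.24 and 3.66 CPM, 7.27, 2.11 and 1.55 CPM and 4.78, 2.58 and 4.45 CPM in the same order. Both were highest in post-MCS-01 replicate 3 and second highest in pre-MCS-01 replicate 1, and the 4 groups overlapped. Because the pair had the same highest libraries, their windows are shown with the same motifs in capitals, on the minus strand, at chr5:92348890-92349139 for Cxcl10 and chr5:92328080-92328329 for Cxcl9.
Cxcl10: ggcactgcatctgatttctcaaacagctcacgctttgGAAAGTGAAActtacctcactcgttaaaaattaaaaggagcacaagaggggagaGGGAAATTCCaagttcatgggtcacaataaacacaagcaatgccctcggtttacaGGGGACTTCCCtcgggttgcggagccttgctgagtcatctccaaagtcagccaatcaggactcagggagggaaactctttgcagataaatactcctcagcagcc
Cxcl9: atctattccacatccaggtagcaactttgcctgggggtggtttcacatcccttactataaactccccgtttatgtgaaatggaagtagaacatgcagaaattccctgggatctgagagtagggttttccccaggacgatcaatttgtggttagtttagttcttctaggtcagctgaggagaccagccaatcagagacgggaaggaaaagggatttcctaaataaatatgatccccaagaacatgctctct
The Cxcl10 window held GAAANNGAAA at 213 bases before the start and 3 matches to the NF-kappaB consensus at 159, 104 and 103 bases, the last 2 overlapping. The Cxcl9 window held none of the 4 motifs. GAAANNGAAA was found in 2.98% of all windows and in 3 of the 38 members, and the NF-kappaB consensus in 7.25% of all windows and in 8 of the 38. Cxcl10 shares exon bases with Art3 on the opposite strand, and no strand setting is given in the sources used here, so reads of the pair cannot be told apart.

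Among homeostatic ligands, Cxcl14 stood at 338, 327 and 275 CPM in blank, 56.9, 651 and 521 CPM in DSCG, 198, 496 and 121 CPM in the pre-MCS-01 wounds and 110, 56.6 and 241 CPM in post-MCS-01. All post-MCS-01 values were below those of blank, while DSCG and pre-MCS-01 spanned both. The log2 difference of post-MCS-01 to blank was −1.21 ± 0.77 (edgeR adjusted p 0.711). Cxcl16, the ligand of Cxcr6 made by macrophages, dendritic cells and keratinocytes, was at 118, 107 and 83.1 CPM in post-MCS-01, 69.0, 60.2 and 92.5 CPM in the pre-MCS-01 wounds, 69.1, 41.0 and 37.0 CPM in DSCG and 52.3, 74.0 and 89.6 CPM in blank. Of all 6 pairs of groups, only post-MCS-01 and DSCG had ranges apart. The log2 difference of that pair was 1.06 ± 0.29 (edgeR adjusted p 0.139). With 1 library of the pair left out it was 0.89 to 1.39. The edgeR adjusted p was then 0.0218 to 0.453, the smallest without DSCG replicate 1. DSCG minus blank was −0.55 ± 0.29 (0.999), or −0.37 without blank replicate 3, −0.37 without DSCG replicate 3 and −0.88 without DSCG replicate 1. Pre-MCS-01 minus DSCG was 0.59 ± 0.29 (1.00), or 0.36 without pre-MCS-01 replicate 3, 0.38 without DSCG replicate 3 and 0.92 without DSCG replicate 1. Cxcl16 shares exon bases with Zmynd15 on the opposite strand.

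Ccl27a, the keratinocyte ligand of Ccr10, was at 11, 26.4 and 59.5 CPM in blank, 5.57, 8.48 and 24.4 CPM in DSCG, 4.48, 15 and 6.01 CPM in the pre-MCS-01 wounds and 11.6, 8.40 and 6.66 CPM in post-MCS-01. Blank replicate 3 was the highest, and the groups overlapped. The log2 difference of pre-MCS-01 to blank was −1.90 ± 0.70 (edgeR adjusted p 0.669), or −1.14 without blank replicate 3, and that of DSCG to blank −1.30 ± 0.68 (0.999), or −0.54 without the same library and −2.18 without DSCG replicate 3. Ccl27a overlaps Il11ra1 on the opposite strand and has a near-identical copy, Ccl27b, so its value is uncertain. Ccl19, which also has near-identical copies, was at 41.3, 10.8 and 51.2 CPM in post-MCS-01 and at 6.81 to 25.5 CPM in the other 9 libraries. Cxcl12 was at 128 to 392 CPM and Cxcl13, the B cell ligand of Cxcr5, at 3.43 to 21.1 CPM over the 12 libraries. Ccl25 and Ccl28, ligands of Ccr9 and Ccr10, reached 3.14 and 0.529 CPM at most.

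Ccr1, a receptor of neutrophils, monocytes and macrophages, stood at 19.9, 47.7 and 36.0 CPM in post-MCS-01, 29.0, 11.5 and 23.1 CPM in the pre-MCS-01 wounds, 15.2, 9.23 and 2.22 CPM in DSCG and 16.5, 6.69 and 8.38 CPM in blank. The post-MCS-01 wounds were above DSCG and blank without overlap, and pre-MCS-01 overlapped each group. The log2 difference to DSCG was 1.96 ± 0.62 (edgeR adjusted p 0.221) and to blank 1.69 ± 0.63 (0.396), and that of pre-MCS-01 to DSCG was 1.25 ± 0.61 (1.00), with 0.75 without DSCG replicate 3 and 1.89 without DSCG replicate 1. The neutrophil marker sums were 4427 to 9975 CPM in post-MCS-01 and 28.2 to 3649 CPM in DSCG, and their part in the Ccr1 values was not tested. Cxcr4 was at 32.2, 27.3 and 17.6 CPM in post-MCS-01, 25.6, 16.8 and 24.5 CPM in the pre-MCS-01 wounds, 18.8, 18.6 and 15.6 CPM in DSCG and 26.7, 14.3 and 14.9 CPM in blank. These ranges overlapped, and the largest log2 difference, post-MCS-01 to DSCG, was 0.54 ± 0.30 (edgeR adjusted p 0.536).

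Ccr2, the receptor of monocytes, was highest in post-MCS-01 replicate 3, at 77.0 CPM, and its groups overlapped. Ccr8, the receptor of Ccl1 and Ccl8, was at 1.01 to 1.91 CPM in post-MCS-01 and 0.132 to 0.912 CPM in DSCG, a log2 difference of 1.63 ± 0.68 (edgeR adjusted p 0.385). It was at 0.227 to 0.820 CPM in the pre-MCS-01 wounds and 0.686 to 1.31 CPM in blank. The blank range overlapped post-MCS-01 through blank replicate 3, where 1.31 CPM is 5 counts. Cxcr6 reached 23.4 CPM in DSCG replicate 1 and 15.3 CPM in pre-MCS-01 replicate 1, and was at 1.06 to 8.14 CPM in the other 10 libraries. Cxcr3, the receptor of Cxcl9 and Cxcl10, was at 0.966 to 4.84 CPM. Ccr3, Ccr6, Ccr10, Cxcr1, Cxcr5 and Xcr1 were each under 2 CPM in every library, and Ccr6 had a count of 0 in blank replicate 3, where the depth allows up to 0.782 CPM.

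The 4 atypical receptors all had lower estimates in pre-MCS-01 than in blank wounds, with a median log2 difference of −1.07. Of all genes, 54.1% had a higher estimate in pre-MCS-01. For 3 of the 4 the 2 groups did not overlap, while 5.96% of all genes were lower in pre-MCS-01 without overlap. In this comparison edgeR called 0 of the 4 and 0.0% of all genes. The direction was not particular to this pair of groups. All 4 estimates were also below blank in the DSCG wounds (median −0.47). Of the MCS-01 groups, pre-MCS-01 had the lower estimate for all 4 (median −0.91). Against DSCG, 3 of the 4 were lower in pre-MCS-01 (median −0.51) and all 4 were higher in post-MCS-01 (median 0.45). Post-MCS-01 against blank divided into 2 positive and 2 negative estimates (median −0.02). Ackr2, the scavenger of inflammatory CC chemokines, was at 2.61, 2.05 and 2.28 CPM in the pre-MCS-01 wounds, 5.55, 6.01 and 6.81 CPM in blank, 6.00, 1.38 and 3.05 CPM in DSCG and 5.52, 4.58 and 5.92 CPM in post-MCS-01. The pre-MCS-01 wounds were below blank and post-MCS-01, and DSCG spanned them. Ackr2 in pre-MCS-01 differed from blank by −1.39 ± 0.43 (edgeR adjusted p 0.610) and from post-MCS-01 by −1.21 ± 0.42 (0.332). DSCG minus blank was −0.81 ± 0.42 (0.999), or −0.42 without DSCG replicate 2 and −1.45 without DSCG replicate 1.

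Ackr1, the Duffy antigen receptor of venules and red cells, was at 4.43, 7.39 and 5.43 CPM in the pre-MCS-01 wounds, 13.9, 11.1 and 12.6 CPM in blank, 8.0, 18.8 and 7.62 CPM in DSCG and 11.7, 6.19 and 23.8 CPM in post-MCS-01. The pre-MCS-01 wounds were below blank and DSCG, and overlapped post-MCS-01. The log2 difference to blank was −1.13 ± 0.48 (edgeR adjusted p 0.673) and to DSCG −1.0 ± 0.47 (1.00), or −0.44 without DSCG replicate 2. Ackr4, the scavenger of Ccl19, Ccl21 and Ccl25, was at 5.52, 11.8 and 8.17 CPM in the pre-MCS-01 wounds, 13.2, 15.5 and 23.8 CPM in blank, 7.90, 8.83 and 17.5 CPM in DSCG and 10.9, 9.96 and 14.5 CPM in post-MCS-01, with a log2 difference of pre-MCS-01 to blank of −1.02 ± 0.38 (edgeR adjusted p 0.669). The pre-MCS-01 wounds were again below blank, and overlapped DSCG and post-MCS-01. Ackr3 was at 63.9, 30.1 and 41.9 CPM in blank, 52.9, 32.1 and 22.3 CPM in DSCG, 24.0, 41.1 and 48.4 CPM in the pre-MCS-01 wounds and 45.4, 61.6 and 66.7 CPM in post-MCS-01. These ranges overlapped in all pairs, with no difference past the threshold. Ackr1 shares exon bases with Cadm3 on the same strand and Ackr4 with Acad11 on the opposite strand. Blood endothelium markers (6 genes) summed to 117 to 289 CPM in blank and to 54.3 to 229 CPM in the pre-MCS-01 wounds. Lymphatic endothelium markers (5 genes, of which Ccl21a was at 0) summed to 57.6 to 114 CPM and 41.6 to 100 CPM in the same order. In post-MCS-01 the 2 sums were 157 to 267 and 83.5 to 205 CPM. Median log2 differences of pre-MCS-01 to blank were −0.61 over the 6 blood and −0.94 over the 4 lymphatic markers tested, with 0 positive and 0 called. Pre-MCS-01 minus post-MCS-01 medians were −0.50 and −1.02, with 0 positive, and edgeR called 1 lymphatic marker. The part of these cells in the atypical receptor values was not tested.

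**Figure D4:**
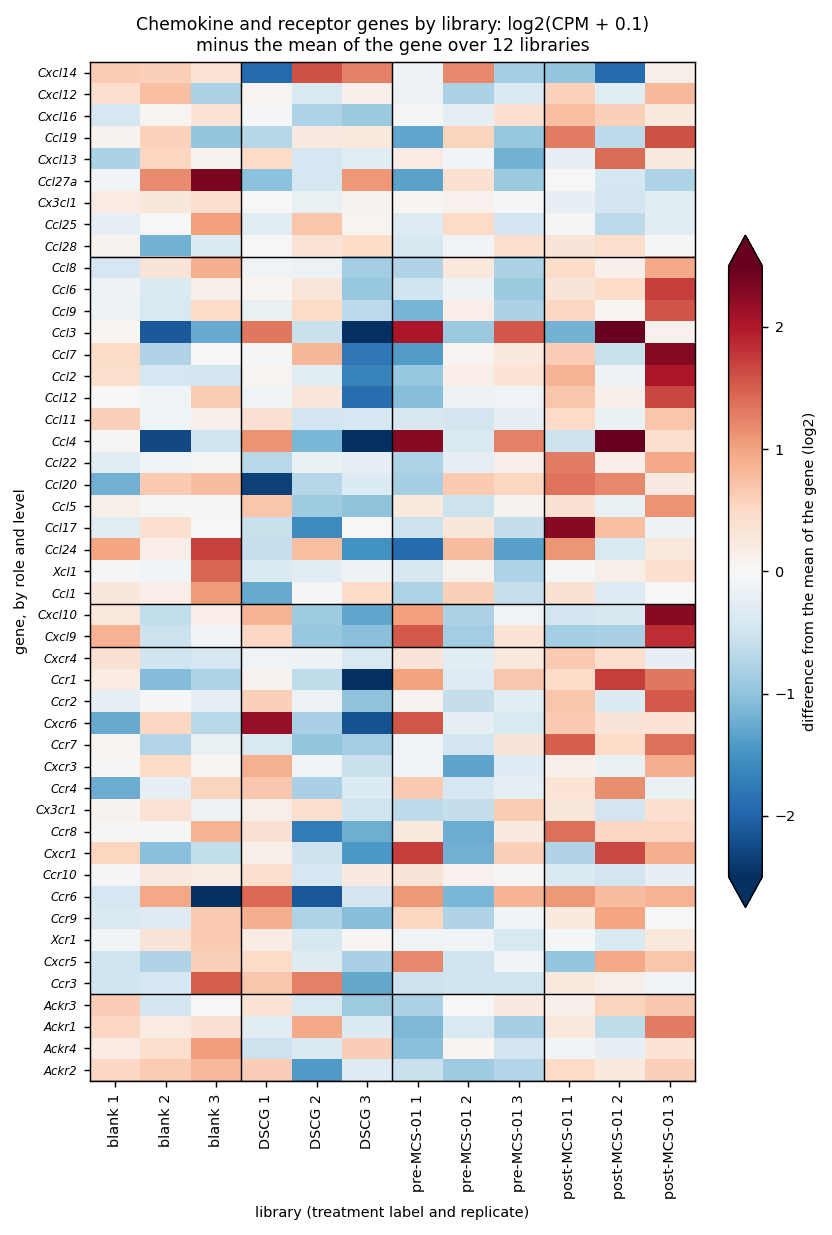
Level of 47 of the 48 tested chemokine and receptor genes by library, as log2 of CPM plus 0.1 minus the gene's mean over the 12 libraries, with genes in rows by class and the libraries of the 4 groups in columns. Post-MCS-01 replicate 3 holds the highest value of 17 of the 48 tested members and DSCG replicate 3 the lowest of 19.

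Single libraries held many of the extreme values of the family. Post-MCS-01 replicate 3 had the highest value of 17 of the 48 tested members and the lowest of 0, with a summed level of 2404 CPM, against 942 to 1588 CPM in the other 11. DSCG replicate 3 had the lowest value of 19 members and the highest of 1. Its lowest members included Ccl2, Ccl3, Ccl4, Ccl7 and Ccr1. Blank replicate 3, the shallowest library, had the highest value of 10.

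In 5 lists of other genes of the pathway, 85 genes tested in all, edgeR called 0 genes in each of the 6 comparisons and in the joint test. For post-MCS-01 against DSCG, the 12 chemokine genes set aside by rule or named differently had 10 positive and 2 negative estimates with a median log2 difference of 1.95. The neutrophil ligand Cxcl1 was at 19.8 ± 0.625 CPM against 1.93 ± 1.85 CPM (SD, n = 3), a log2 difference of 3.35 ± 0.89 (edgeR adjusted p 0.131). All 23 receptor signalling and desensitization genes tested had a positive estimate (median 0.48), as did 14 of 18 adhesion genes (0.44), 16 of 18 inducing cytokines and factors (0.78) and 11 of 14 proteases and glycosaminoglycan carriers (0.27). In the last list Dpp4, a peptidase that trims chemokines, had an estimate in the other direction, at 18.8 ± 1.18 CPM in post-MCS-01 and 34.6 ± 5.10 CPM in DSCG, a log2 difference of −0.88 ± 0.22 (edgeR adjusted p 0.115). At an unadjusted p under 0.05 in that comparison the lists held 6, 2, 3, 10 and 3 genes in the order given. That was 24 of the 85, against 11.3% of all genes. DESeq2 called 8 of the 85 there (Cxcl1, Ppbp, Jak2, Icam1, Il13, Il1a, Mmp8 and Dpp4), against 3.81% of all genes. Limma-voom called 0 with or without quality weights. In post-MCS-01 against blank, pre-MCS-01 against blank, DSCG against blank, pre-MCS-01 against post-MCS-01, pre-MCS-01 against DSCG and the joint test, edgeR's unadjusted p was under 0.05 for 13, 2, 2, 10, 2 and 13 genes. Over all genes the shares were 9.35%, 7.24%, 1.03%, 10.2% and 2.36%, with 1369 of 16267 genes in the joint test. In that order DESeq2 called 1, 0, 0, 3, 0 and 5 of the 85, against 2.5%, 0.418%, 0%, 2.63%, 0.105% and 3.48% of all genes. Limma-voom called 0 in each. Limma-voom with quality weights called 4, 16, 0, 30, 0 and 22, against 5.08%, 15.3%, 0%, 23.5%, 0% and 13.5% of all genes.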

How the data were processed

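Total RNA of 12 wounds was sequenced after a TruSeq RNA library preparation, per the labels' protocols, with no strand setting given. The authors deposited raw read counts per gene symbol, 1 table per library. FastQC, TopHat2, Bowtie2, HTSeq and limma with build mm10 are named per the submitters' processing notes, and their versions, settings and annotation are not given in the sources used here. Lines of the counting tool that name no gene stayed out of library sizes and tests. They held 22.9 to 29.3% of all counts in a table, of which alignments that were not unique were 17.2 to 23.4% of all counts, so near-identical genes (Ccl19, Ccl21, Ccl27) are uncertain.

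Libraries were grouped by the treatment label, with replicates numbered in record order. In R 4.3.3, filterByExpr kept 16267 genes, TMM factors were 0.905 to 1.07, and edgeR 4.0.16 (glmQLFit and glmQLFTest, two-sided) was fitted once to the 12 libraries, 1 coefficient for each treatment. Adjustment was by Benjamini-Hochberg over the genes tested, with calls at 0.05. The procedure was tested on simulated data. Log2 CPM used a prior count of 2, and exon lengths came from GENCODE M21. Alternatives were DESeq2 1.42.0, limma-voom (limma 3.58.1) with and without quality weights, other scalings, no filter, pairs of groups alone and left-out libraries.

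The members, roles, marker lists and pathway lists were chosen with earlier results of these data known. Full statistics were given for members past the threshold, for the 4 members with the smallest p in each comparison, and values in every library also for the member with the highest level per kb in each of 4 classes. Other members named with values (among them Ccl20, Ccr8, Ccl2, Ccl3, Cxcl9 and Cxcl10) and the genes of the pathway lists were chosen after their values were seen. Counts and medians cover all members, but 1 member is not reported here by name.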

Additional observations from a re-analysis of the deposited data

How the results depend on the processing

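No paired analysis was possible because every mouse has its own number and the replicate numbers only follow the order of the records. The count of chemokine genes called was 1 for post-MCS-01 against DSCG and 0 elsewhere. For post-MCS-01 against DSCG it was 6 with DESeq2 (12.5% of the 48, against 3.81% of all genes), and 0 with limma-voom, with library quality weights, when only the 2 groups were fitted and without the 3 libraries low in long genes. Leaving out each library in turn gave 0 to 3, the 3 (Ccr7, Ccr8 and Cxcl16) without DSCG replicate 1. Those 3 were 6.25% of the 48, where 3.71% of all genes were called. DESeq2 called 2 for post-MCS-01 against blank, 3 for pre-MCS-01 against post-MCS-01 and 2 in the joint test (4.17%, 6.25% and 4.17%, against 2.5%, 2.63% and 3.48% of all genes). Library quality weights gave 7 for pre-MCS-01 against blank, 4 for post-MCS-01 against blank, 28 for pre-MCS-01 against post-MCS-01 and 13 in the joint test, or 14.6%, 8.33%, 58.3% and 27.1% of the 48, where they called 15.3%, 5.08%, 23.5% and 13.5% of all genes. The cause of these differences was not tested. For DSCG against blank and pre-MCS-01 against DSCG the count was 0 under every alternative run. Over all genes, post-MCS-01 against DSCG gave 172 calls, 620 with DESeq2, 2 with limma-voom and 0 with quality weights. With 1 library left out it gave 0 to 604, the 604 without DSCG replicate 1. Of the values for the named members under alternatives, 331 kept their side of the threshold, 20 passed it, 9 no longer did and 0 changed direction. Only Ccr7 in post-MCS-01 against DSCG was past the threshold in the main fit. All 9 losses were of that call, which was kept in 6 alternatives, and the other values that kept their side stayed uncalled. Blank replicate 3 limits the low members, since 3 counts there equal 0.782 CPM.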
